A study of Mus musculus with 12 samples.

Results

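The cytosolic ribosomal protein genes of mouse encode the proteins of the large (60S) and small (40S) ribosomal subunits. They were taken by symbol, as all genes named Rpl or Rps with a number (with or without a paralog letter), plus Rplp0, Rplp1, Rplp2 and Rpsa, among the transcript clusters of the array that name a single gene. The rule found 217 clusters and 61 genes, of 19938 genes read by such clusters. Each gene was represented by its cluster with the highest mean signal over all arrays. There were 38 genes of the 60S subunit and 23 of the 40S subunit. Another 17 ribosomal protein genes, among them Rpl3, Rpl11 and Rps24, were read only by clusters that they share with other genes and are not among the 61.

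The study asked how neutrophils respond to immune complexes with and without CARD9, an adaptor protein of innate immune signalling. The neutrophils, labelled as Ly6G+ and prepared by red cell lysis and a Percoll density gradient without a described sort, came from bone marrow of C57BL/6 (wild type) mice and of mice homozygous for the Card9 tm1Jrld knockout mutation (Card9-/-), which was backcrossed to C57BL/6 and deletes the gene in all tissues rather than only in neutrophils. Cells were kept for 4 h on a surface coated with human serum albumin (control) or with human serum albumin and antibodies against it (IC, immune complex), and adherent and nonadherent cells were lysed together. Adult mice of both sexes were used in the study, and the number of mice behind an array is not stated by the labels or methods. The 4 groups, which are wild type and Card9-/- cells on the control and on the IC surface, were each measured in 3 experiments done at separate times. This gave 3 arrays per group and 12 in all. Values are log2 signals, as deposited, and a difference of 1 on this scale is a doubling. P-values measure the spread of the group differences between the 3 experiments, since the experiment was fitted as a block.

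A ribosome reads messenger RNA on its small subunit and joins amino acids on its large subunit, and it holds nearly all of its proteins in equal numbers. Many of their mRNAs start with an uninterrupted tract of pyrimidines that begins with a C, the 5′ terminal oligopyrimidine tract. Through it, mTORC1 signalling and the RNA-binding protein LARP1 control their translation together, so that the amount of protein made can change without a change in mRNA. Mature neutrophils are short-lived cells that carry less RNA and fewer ribosomes than their dividing precursors in the bone marrow. Ribosomal protein genes also have many processed pseudogenes of near-identical sequence, so that a probe set can read more than its own gene; this was not tested.

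The start sites of some of these genes show a run of pyrimidines of the kind described above. RefSeq promoters of build GRCm38.p6 were found for 49 of the 61 genes, with 58 start sites, and 30 bases (10 before the annotated start and 20 from it on) were searched on the transcript strand. The following windows, written 5′ to 3′, are those of the P-stalk genes found, of Rps6, and of most of the other genes whose values are given array by array; capitals mark the longest run of C and T that begins with a C, and the annotated start is the base after the first 10.
Rplp0: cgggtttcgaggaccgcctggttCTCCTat
Rplp2: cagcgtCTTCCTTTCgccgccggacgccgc
Rps6: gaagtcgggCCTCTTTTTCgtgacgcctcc
Rps10: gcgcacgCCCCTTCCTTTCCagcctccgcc
Rps15a: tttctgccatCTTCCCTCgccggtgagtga
Rpl5: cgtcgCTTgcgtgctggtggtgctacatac
Rps3a1: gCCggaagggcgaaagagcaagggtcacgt
Rpl32l: aaatgaccagCTTCTTCCTTggtgctgcct
Rpl7l1: gCTgcgcaagcgcagtagctgaagcaccgg
Rpl10l: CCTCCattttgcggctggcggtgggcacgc

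These windows lie at chr5:115559457-115559486 (plus strand) for Rplp0 and at chr7:141447641-141447670 (plus) for Rplp2. Those of Rps6, Rps10 and Rps15a lie at chr4:86857348-86857377, chr17:27635225-27635254 and chr7:118116128-118116157, all on the minus strand. Those of Rpl5 and Rpl32l lie on the plus strand at chr5:107900518-107900547 and chr10:20208429-20208458, and those of Rps3a1 and Rpl10l on the minus strand at chr3:86142649-86142678 and chr12:66284382-66284411. That of Rpl7l1 lies at chr17:46782637-46782666 (minus). A run of at least 8 bases was found at 15 of 58 start sites of these genes (25.9%), against 8.68% of 32851 start sites of all genes in windows of the same length. The median length of the longest run was 5 bases at their start sites and 4 at all start sites. The letters CTTTC were found at 13.8% of their start sites and at 3.74% of all start sites, and CTTTT at 8.62% and 3.1%; some windows hold both, and 1 or the other was found at 19% and 6.63%. Rps10 had the longest run of the windows shown, with 13 bases from position -3 relative to the annotated start, while the longest runs of Rpl5, Rps3a1 and Rpl7l1 were 3, 2 and 2 bases. Annotated starts can lie some bases away from the true ones, so a window without a run shows only that these letters are not at the annotated place.

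The libraries were read first for what they contain. Card9 had a signal of 8.08 to 8.75 in the 6 wild type arrays and of 5.56 to 6.42 in the 6 Card9-/- arrays, with no overlap, and differed between the genotypes by −2.40 averaged over the surfaces (SE 0.15, adjusted p = 6.8e-05 in limma, lower in 3 of 3 experiments). The median signal of 14 neutrophil markers, Ly6g among them, was between 12.3 and 12.6 in every array. The median of 9 B cell markers was 6.42 to 7.60 in experiment 1, 5.28 to 5.45 in experiment 2 and 7.48 to 8.51 in experiment 3. That of 6 early neutrophil (primary granule) genes was 9.06 to 9.93 in experiments 1 and 2 and 10.7 to 11.3 in experiment 3. The array median over all 28944 clusters was 5.70 to 5.93 in experiments 1 and 2 and 5.27 to 5.39 in experiment 3. Cells of another type and a different RNA content per cell cannot be told apart in such bulk samples.

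The ribosomal protein genes differed more between experiments than between groups. In experiment 3 the mean of 52 of the 61 genes was above the mean of experiments 1 and 2, with a median difference of 0.67, whereas 18% of all clusters were higher in experiment 3 and the median over all clusters was −0.51. Among the 1777 clusters with a mean signal of at least 10, 50.8% were higher and the median was 0.02. The difference was largest for Rpl32l (2.03), a copy related to Rpl32, followed by Rpsa (1.32), which encodes the laminin receptor protein of the small subunit, and Rpl8 (1.31), a core protein of the large subunit. By subunit, 22 of 23 genes of the 40S subunit (median 0.82) and 30 of 38 of the 60S subunit (median 0.61) were higher. After quantile normalization 56 of 61 were higher (median 0.70), against 48.6% of all clusters (median −0.013). After median centring it was also 56 of 61 (median 1.14), against 46.0% of all clusters (median −0.046). No test was made of the difference between experiments.

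The other 9 genes were lower in experiment 3. They were Rplp2 (−1.02), Rpl39l (−0.82), Rpl30 (−0.68), Rpl10l (−0.54), Rpl3l (−0.51), Rps15a (−0.39), Rpl22 (−0.32), Rpl7l1 (−0.24) and Rpl12 (−0.04). Among these are 4 of the 6 measured paralogs, genes related to another gene of the family. Of them, Rpl3l is mostly used in muscle, and Rpl10l and Rpl39l in testis. In the order above, the mean signals of the 9 genes were 6.66, 3.89, 7.14, 4.76, 4.87, 7.04, 6.34, 9.27 and 5.91. The array median of the 61 genes was 9.98 to 11.20. Among genes of like signal, Rpl14 (6.92) and Rps4l (6.97) were higher in experiment 3. The array median over all clusters was also lower in experiment 3. The part of signal level and of that median in these values was not tested.

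**Figure D1:**
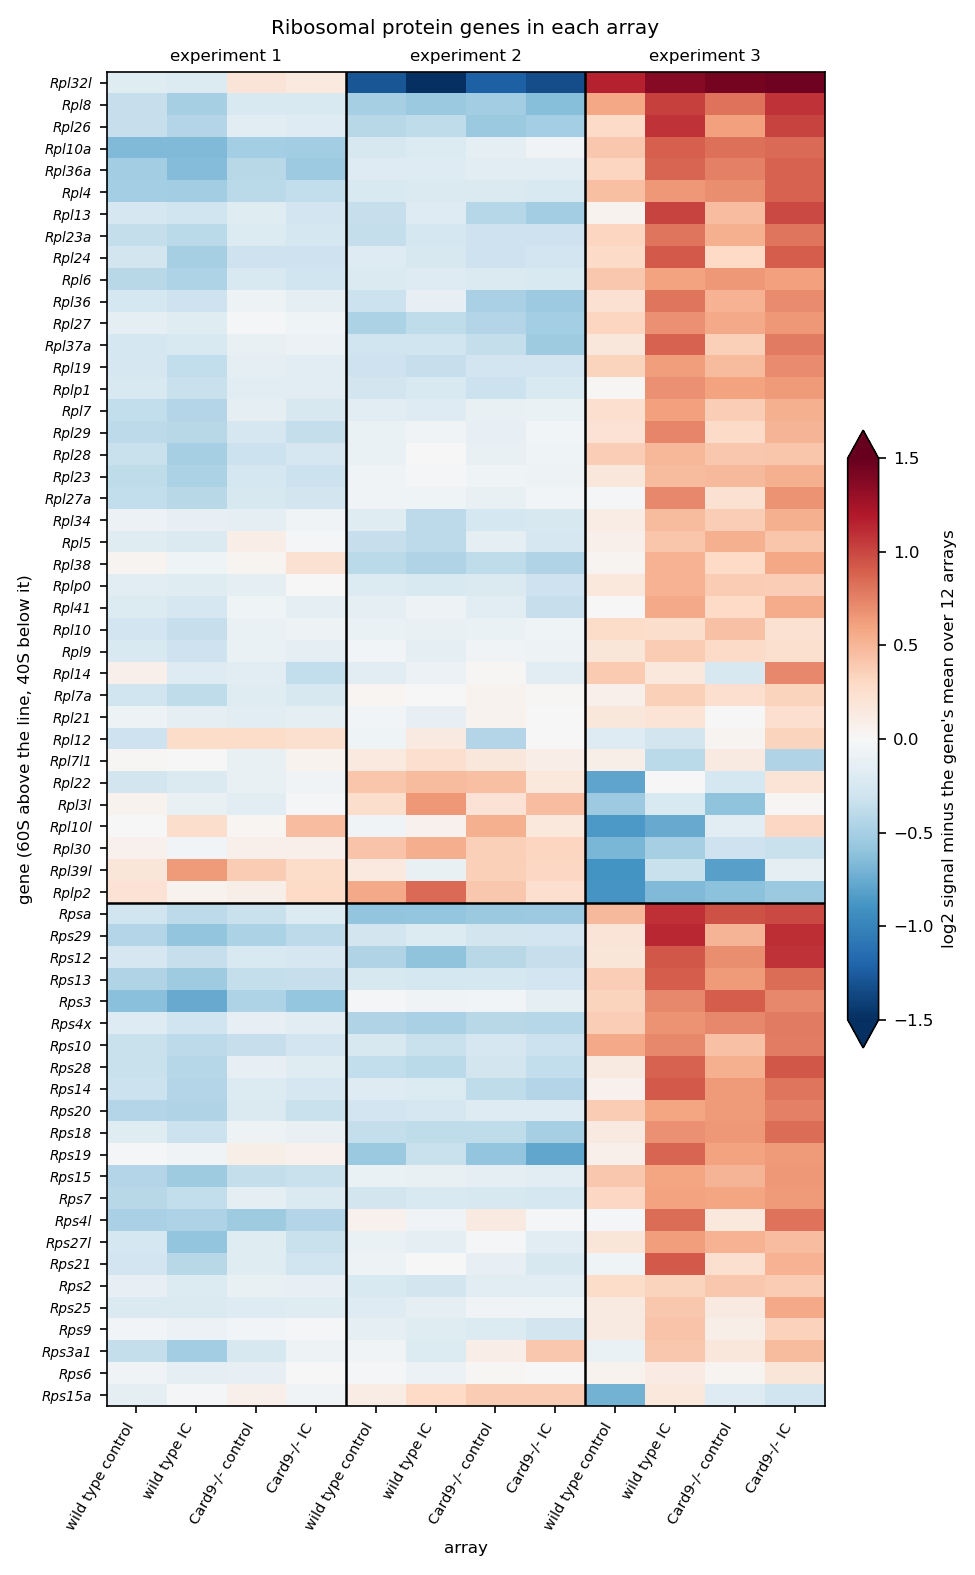
Log2 signal of each of the 61 genes (rows, 60S genes above the line and 40S genes below it, ordered by the difference between experiment 3 and the others) in each of the 12 arrays (columns), minus the gene's own mean over the 12 arrays. The columns of experiment 3 are mostly red, the wild type control array of that experiment is paler than its 3 neighbours, and the rows at the bottom of each block run the other way.

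Within experiment 3 the 4 arrays were not alike. The wild type control array had the lowest signal of the 4 for 52 of the 61 genes, whereas this was so for 35.1% of all clusters. In experiments 1 and 2 it was the lowest for 7 and 10 of the 61 genes, against 23.2% and 24.5% of all clusters. The pattern was not particular to these genes. Of 77 genes of the mitochondrial ribosome the array was the lowest for 46 in experiment 3 (59.7%) and for 14 (18.2%) in each other experiment. In experiment 3 it was the lowest for 7 of 9 B cell markers, 15 of 39 ribosome assembly genes, 8 of 30 translation factors and 1 of 14 neutrophil markers. In the order control and IC of wild type, then control and IC of Card9-/- cells, the median signal of the 61 genes was 10.05, 9.98, 10.16 and 10.12 in experiment 1 and 10.08, 10.14, 10.17 and 10.12 in experiment 2. In experiment 3 it was 10.66, 11.15, 11.00 and 11.20. The wild type control array of experiment 3 therefore lay above all arrays of the other experiments and below the 3 arrays of its own experiment. It was still the lowest for 48 of 61 genes after quantile normalization (27.3% of all clusters) and for 45 after median centring (21.1%). This array also had the lowest median of the 9 B cell markers in its experiment (7.48, against 7.68, 8.01 and 8.51), and their part in the result was not tested.

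Related gene lists moved less between the experiments. Of 77 genes of the mitochondrial ribosome, whose proteins are made in the cytosol for a separate ribosome, 58 were higher in experiment 3 (median 0.32). So were 20 of 30 translation initiation and elongation factors (median 0.35) and 28 of 39 genes of ribosome assembly (median 0.34), which make and process ribosomal RNA or build the subunits. Of 19 genes of mTORC1 signalling and regulators of ribosomal protein mRNAs, 5 were higher (median −0.31). Fau, which encodes a fusion protein that releases the small subunit protein eS30 and which has a symbol outside the rule, was higher by 0.68. Of the cell type markers, 8 of 9 B cell genes (median 1.94) and 6 of 6 early neutrophil genes (median 0.94) were higher in experiment 3, and their part in the rise of the ribosomal protein genes was not tested.

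The array median of the neutrophil markers, near the top of the signal range, hid markers that were lower in experiment 3. Cxcr2, a chemokine receptor of mature neutrophils, had signals of 12.04, 11.11, 11.54 and 10.76 in experiment 3, in the same order of groups, and of 11.83 to 12.26 in the other experiments. Itgam, which encodes the integrin CD11b, had 11.57, 10.84, 11.29 and 10.84, against 11.78 to 11.99. Csf3r and Mmp9 were also lowest in Card9-/- cells on IC of experiment 3, at 10.90 and 11.79. For these 4 markers, chosen after their values were seen, the wild type control array was the highest of experiment 3. The same held for Ltf, Ly6g and Mmp8, but not for Camp, Fcgr4, Lcn2, Ngp, Retnlg, S100a8 and S100a9. The wild type control array was the lowest there for most ribosomal protein genes, and the part of these markers in the result was not tested. The neutrophil markers did not all run this way. Of the 14, 9 were higher in experiment 3 than in the mean of experiments 1 and 2, with a median difference of 0.08 over the 14.

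**Figure D2:**
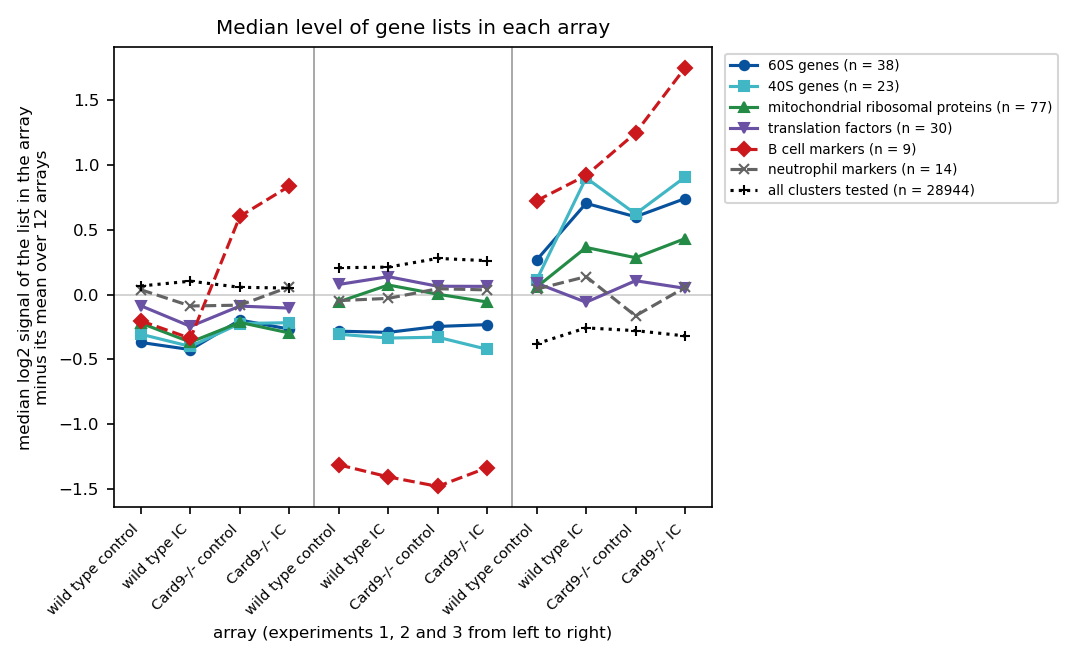
Median log2 signal of gene lists in each of the 12 arrays (horizontal axis, 4 arrays per experiment), minus the list's own mean over the arrays. The 60S and 40S genes stay together in experiments 1 and 2 and rise in experiment 3 above the mitochondrial ribosomal proteins and the translation factors, and the B cell markers are lowest in experiment 2.

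The P-stalk genes show this pattern gene by gene. The P-stalk is the arm of the large subunit that recruits translation factors, and it is built of the scaffold protein P0 (Rplp0) and of dimers of P1 (Rplp1) and P2 (Rplp2). In the same order of groups, the signal of Rplp0 was 11.74, 11.72, 11.76 and 11.90 in experiment 1, 11.70, 11.68, 11.68 and 11.59 in experiment 2, and 12.06, 12.42, 12.29 and 12.27 in experiment 3. That of Rplp1 was 11.62, 11.51, 11.67 and 11.67, then 11.57, 11.62, 11.52 and 11.62, and then 11.86, 12.53, 12.44 and 12.48. Every array of experiment 3 was above every other array for both genes, and the wild type control array was the lowest of its experiment. The signal of Rplp2 was 6.89, 6.71, 6.75 and 6.96 in experiment 1, 7.23, 7.51, 7.07 and 6.91 in experiment 2, and 5.78, 6.00, 6.05 and 6.11 in experiment 3. Here every array of experiment 3 was below every other array, and the wild type control array was again the lowest. The mean in experiment 3 thus differed from that of the other experiments by 0.54 for Rplp0, 0.73 for Rplp1 and −1.02 for Rplp2. Rplp2 was read by 1 cluster with a mean signal of 6.66, against 11.90 for Rplp0 and 11.84 for Rplp1. The array median over all clusters was also lower in experiment 3, and its part in the value of Rplp2 was not tested.

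Between the groups the P-stalk genes did not pass the test. On IC against control, averaged over the genotypes, the difference was 0.06 for Rplp0 (95% interval −0.11 to 0.22), 0.12 for Rplp1 (−0.09 to 0.34) and 0.07 for Rplp2 (−0.16 to 0.31). Between Card9-/- and wild type cells, averaged over the surfaces, it was 0.03 (−0.14 to 0.20), 0.12 (−0.10 to 0.33) and −0.05 (−0.28 to 0.19) in the same order. The adjusted p was between 0.733 and 0.950 in these 6 limma tests.

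**Figure D3:**
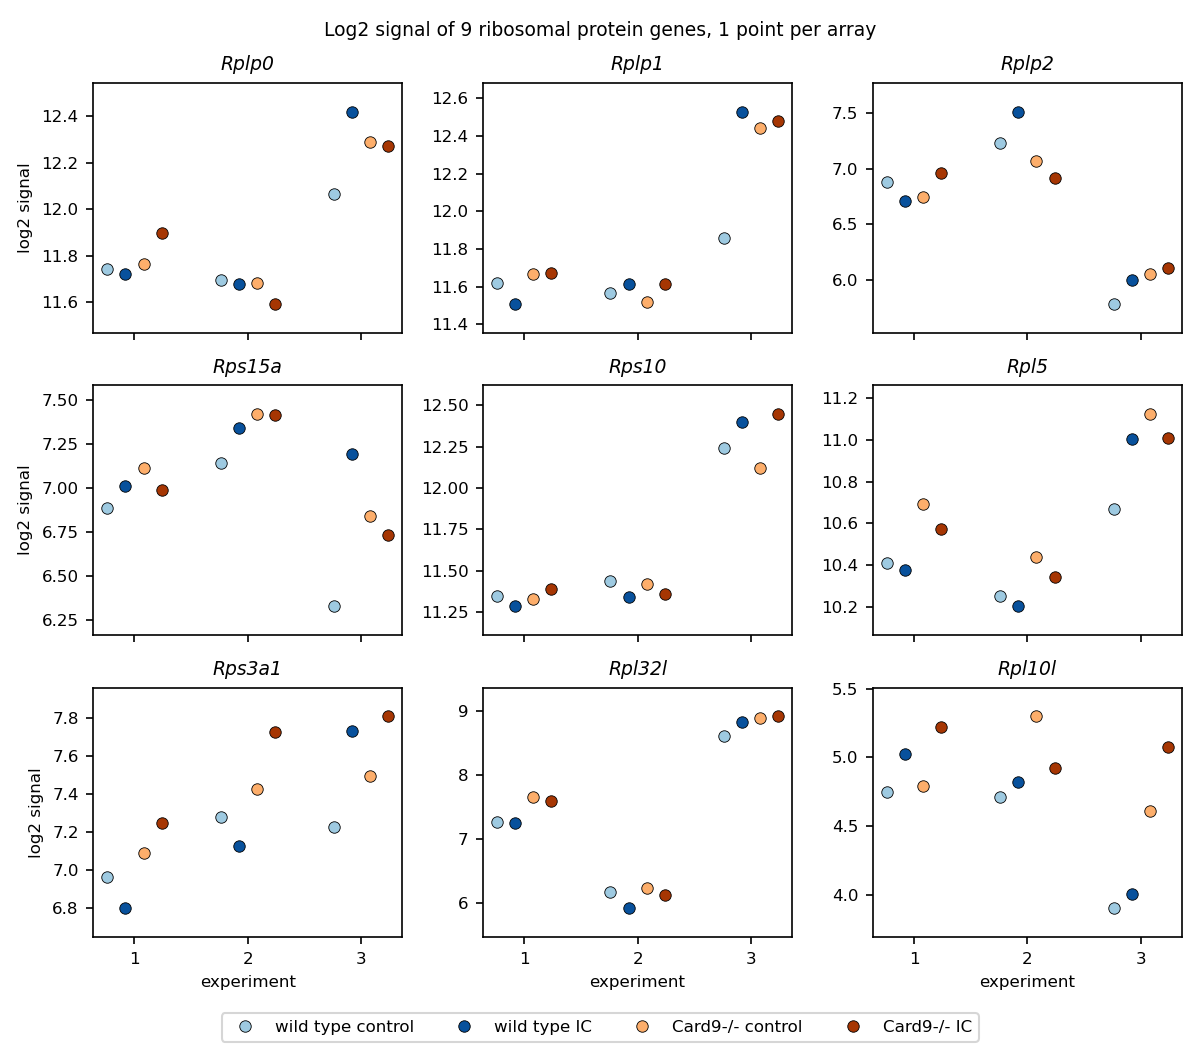
Log2 signal (vertical axis) of 9 ribosomal protein genes in each experiment (horizontal axis), with 1 point per array and the group given by colour. Rplp2, which has a much lower signal, falls in experiment 3 where Rplp0 and Rplp1 rise. For Rpl5 both Card9-/- points lie above both wild type points in experiments 1 and 2.

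The effect of immune complexes was read within each genotype. In wild type cells 0 of the 61 genes passed limma's test at an adjusted p of 0.05 over all clusters, and 0% of the 28944 clusters did. With an unadjusted p under 0.05, 1 of the 61 was higher and 0 were lower, against 5.18% and 4.41% of all clusters. The fitted difference was above 0 for 54 of the 61 genes, with a median of 0.11, beside 59.7% and a median of 0.04 over all clusters. By experiment, the median of the 61 genes was −0.07, −0.005 and 0.36. Higher in 3 of 3 experiments were 4 of the 61 and lower 1, against 18.8% and 12.3% of all clusters. Without the wild type control array of experiment 3 the median was −0.0025, with 29 of 61 genes above 0. Without the wild type IC array of that experiment it was 0.04, with 41 of 61 above 0. After median centring it was 0.055, with 47 of 61 genes above 0 against 45.9% of all clusters.

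The 4 genes with a higher value on IC in every wild type experiment were Rps15a, Rpl22, Rpl10l and Rps7. Rps15a, a small subunit protein, had a difference of 0.39 (SE 0.13, adjusted p = 0.438 in limma), the largest of the 61 in this comparison. Its signal in the order given above was 6.89, 7.02, 7.11 and 6.99 in experiment 1, 7.15, 7.34, 7.42 and 7.42 in experiment 2, and 6.33, 7.19, 6.84 and 6.73 in experiment 3. Much of its mean came from experiment 3, where the wild type control array was low (differences 0.13, 0.20 and 0.86). Rpl22, a large subunit protein that also binds RNA outside the ribosome, had a difference of 0.30 (SE 0.19) from values of 0.06, 0.05 and 0.80. Rpl10l stood at 0.16 (SE 0.20) and Rps7, a gene of the list of human Diamond-Blackfan anaemia, at 0.13 (SE 0.10). The gene lower in every experiment was Rpl10, which lies near the sites where tRNAs bind (−0.03, SE 0.10).

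In Card9-/- cells the 61 genes gave 0 calls, as did all clusters (0%). Unadjusted, 1 had a p under 0.05 and was higher and 0 were lower, against 1.87% and 1.15% of all clusters. The median was 0.05, with 44 of 61 genes above 0, beside −0.01 and 46.4% over all clusters. It was −0.02 in experiments 1 and 2 and 0.18 in experiment 3, and without experiment 3 it was −0.025, with 21 of 61 above 0. After quantile normalization it was 0.018, with 35 of 61 above 0 against 46.3% of all clusters. Here 6 genes were higher in 3 of 3 experiments and 7 were lower, against 11.5% and 14.7% of all clusters. Rpl3l, the muscle paralog of Rpl3, was the gene past the unadjusted threshold (0.34, SE 0.13, adjusted p = 1.00 in limma), with values of 0.15, 0.24 and 0.63. The mean signal of Rpl3l was 4.87, below the median signal of all clusters. With only clusters above that median, 0 of 58 genes had an unadjusted p under 0.05. Rps3a1, a small subunit protein at the exit of the mRNA, stood at 0.26 (SE 0.13). Rpl34, Rpsa and Rplp1 were higher by 0.09, 0.06 and 0.05 in the mean of 3 experiments of the same direction. Rps3 (−0.13) and Rps27l (−0.12), Rpl5 (−0.11), Rps15a (−0.08) and Rpl9 (−0.04) were lower in every experiment, with SEs of 0.10 to 0.13.

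Averaged over the genotypes, 0 of the 61 genes passed, and 0.0104% of all clusters did (3 clusters). Rpl3l (0.26, SE 0.09) was the 1 gene that was higher at an unadjusted p under 0.05 and 0 were lower, against 4.53% and 4.48% of all clusters. With only clusters above the median signal, which leaves Rpl3l out, it was 0 of 58 genes. The median of the 61 genes was 0.07, with 53 genes above 0, beside 0.01 and 55.6% over all clusters. The values per experiment were −0.04, −0.01 and 0.29, so that without experiment 3 the median was −0.03, with 16 of 61 genes above 0. The median IC difference of lymphocyte markers was also highest in experiment 3. The median of the B cell markers was −0.04, 0.06 and 0.51 by experiment and that of 7 T and NK cell markers −0.007, −0.001 and 0.37, and their part in the result was not tested. The genes higher in 3 of 3 experiments were Rpl12, a protein at the base of the P-stalk (0.23, SE 0.13), Rps25 (0.13), Rpsa (0.12) and Rplp2 (0.07). The median was 0.07 in the 60S and 0.10 in the 40S genes. That of the mitochondrial ribosomal proteins was 0.05 (52 of 77 above 0), and that of the translation factors was −0.03 (11 of 30 above 0). These lists had 0 calls as well.

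**Figure D4:**
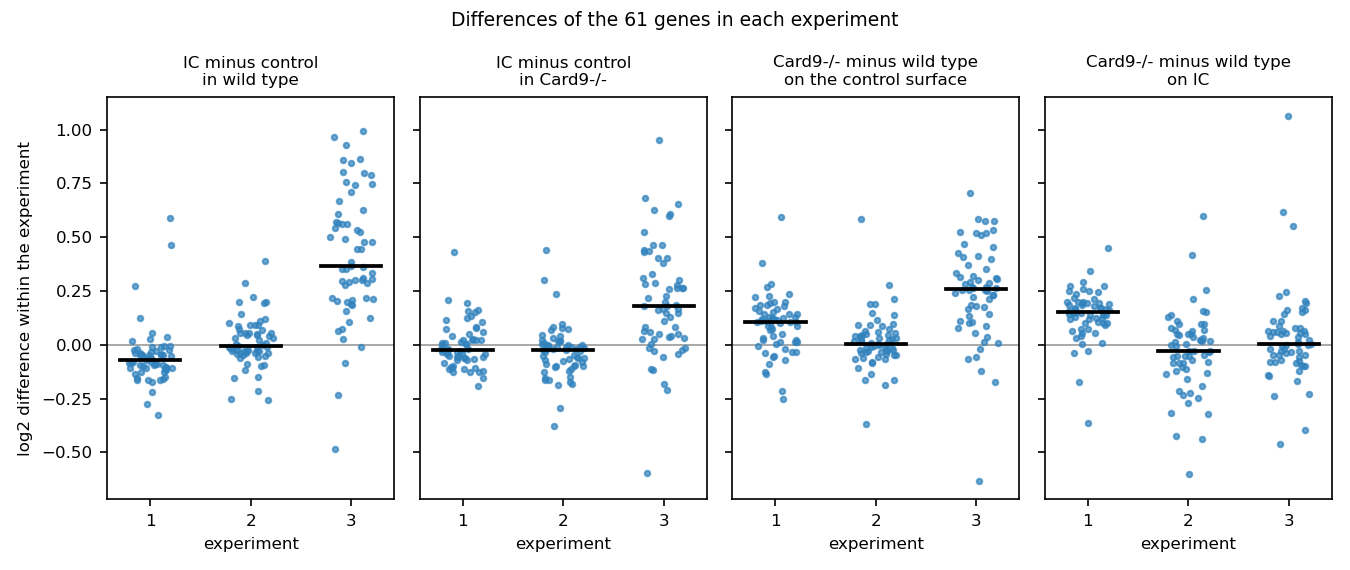
Log2 difference of each of the 61 genes (points) within each experiment (horizontal axis) for IC against control in each genotype and for Card9-/- against wild type on each surface; black bars are medians. The comparisons that use the wild type control array of experiment 3 as their reference, IC in wild type and the genotypes on the control surface, have the highest medians there, 0.36 and 0.26.

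The difference between the IC effects of the genotypes was tested directly. It passed for 0 of the 61 genes and for 0% of all clusters. At an unadjusted p under 0.05, 0 genes were higher and 1 was lower, against 1.03% and 2.65% of all clusters. The median was −0.07, with 16 of 61 genes above 0, beside −0.03 and 43.6% over all clusters, and it was 0.06, −0.04 and −0.23 in the 3 experiments. Without the wild type control array of experiment 3 it was 0.04, with 41 genes above 0, and after median centring 0.0048, with 32 above 0. Lower in 3 of 3 experiments were 11 genes and higher 3, against 16.6% and 12.4% of all clusters. Rps15a had the largest difference (−0.47, SE 0.19, adjusted p = 0.999 in limma), since its signal was higher on IC in all wild type and lower in all Card9-/- experiments. Rpl13, Rpl22, Rpl36 and Rpl41, all of the large subunit, followed at −0.25, −0.23, −0.23 and −0.20 (SEs of 0.20 to 0.27). Of these, Rpl13 and Rpl22 turned to 0.018 and 0.016 without the wild type control array of experiment 3. Rpl21 (0.12), Rps6 (0.11) and Rps10 (0.11) were the genes above 0 in every experiment. Rps6, whose protein is phosphorylated downstream of mTORC1, had signals of 12.34 to 12.67 in all arrays.

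The genotypes were compared on each surface. On the control surface 0 of the 61 genes passed, and 0.038% of all clusters did. By the unadjusted p, 3 were higher in Card9-/- cells at a p under 0.05 and 0 were lower, against 2.43% and 2.22% of all clusters. The median was 0.12, with 52 of 61 genes above 0, beside 0.03 and 57.4% over all clusters. It was 0.10, 0.006 and 0.26 in experiments 1, 2 and 3, and 0.067 after median centring, with 49 of 61 genes above 0 against 41.5% of all clusters. Higher in 3 of 3 experiments were 25 genes and lower 2, against 18% and 12.8% of all clusters. Without the wild type control array of experiment 3 the median was −0.0038, with 28 of 61 genes above 0. The 3 genes were Rpl10l (0.44, SE 0.20), Rps15a (0.34, SE 0.13) and Rpl5 (0.31, SE 0.10), each with an adjusted p of 0.954 in limma. Rpl10l had a mean signal of 4.76, below the median signal of all clusters. Rpl22 and Rpl32l stood at 0.24 each, and Rpl22 turned to −0.00045 without the wild type control array of experiment 3. Lower in every experiment were Rpl3l (−0.11, SE 0.13) and Rps10 (−0.05, SE 0.11).

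On IC, again 0 of the 61 genes passed, and 0.162% of all clusters did. At an unadjusted p under 0.05, 2 were higher and 0 lower, against 4.03% and 5.1% of all clusters. The median was 0.05, with 47 of 61 above 0, beside −0.01 and 46.4% over all clusters, and it was 0.15, −0.03 and 0.004 in the experiments. Without the wild type IC array of experiment 3 it was 0.12, with 55 of 61 genes above 0, and without experiment 1 it was −0.0033, with 30 above 0. Higher in 3 of 3 experiments were 17 genes and lower 0, against 13.5% and 15.4% of all clusters. Rpl10l (0.45, SE 0.20, adjusted p = 0.528 in limma) and Rps3a1 (0.38, SE 0.13, adjusted p = 0.386 in limma) were the 2 genes. Rpl32l (0.21), Rps12 (0.17) and Rpl38 (0.12), with SEs of 0.11 to 0.16, were also higher in every experiment. The comparisons on the 2 surfaces share no arrays, whereas each shares its arrays with the IC comparisons.

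Averaged over the surfaces, 0 of the 61 genes passed between the genotypes, and 0.529% of all clusters did. At an unadjusted p under 0.05, 5 genes were higher in Card9-/- cells and 0 were lower, against 4.78% and 5.31% of all clusters. They were Rpl10l (0.45), Rps3a1 (0.28), Rpl32l (0.23), Rpl5 (0.21) and Rps20 (0.16), and the mean signal of Rpl10l was below the median signal of all clusters. The median was 0.07, with 54 of 61 genes above 0, beside 0.01 and 53.5% over all clusters. By experiment, it was 0.13, −0.002 and 0.13. Higher in 3 of 3 experiments were 24 genes and lower 1, Rpl7l1 (−0.03, SE 0.10), against 15.2% and 14.4% of all clusters. Without the wild type control array of experiment 3 the median was 0.03, with 40 of 61 genes above 0, and without the wild type IC array it was 0.13, with 57 above 0. In the latter case Rps3a1 passed the test (0.37, adjusted p = 0.0395 in limma), so that 1 of 61 genes was called.

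B cell markers also differed between the genotypes. Averaged over the surfaces, 9 of 9 were above 0 in Card9-/- cells, with a median of 0.51 (1.08, −0.02 and 0.47 in experiments 1, 2 and 3), 7 at an unadjusted p under 0.05 and 0 after adjustment. Their array median was 6.56, 5.45 and 7.48 in the wild type control arrays and 6.42, 5.35 and 7.68 in the wild type IC arrays. It was 7.36, 5.28 and 8.01 in the Card9-/- control arrays and 7.60, 5.42 and 8.51 in the Card9-/- IC arrays, each in the order of the experiments. Ribosomal protein mRNAs are abundant in lymphocytes, and the part of B cell RNA in these differences was not tested. Markers of eosinophils, basophils and mast cells were above 0 for 9 of 9 genes, with a median of 0.36 (−0.12, 0.29 and 0.85 by experiment), and 5 of 7 T and NK cell markers were above 0, with a median of 0.15 (0.47, −0.009 and 0.31). Not all markers ran this way. Cd68 and Csf1r, of the monocyte and macrophage list, were lower in Card9-/- cells on both surfaces in every experiment. The other markers of that list changed direction between experiments or surfaces. Alas2, an erythroid marker, was lower in experiments 1 and 2 and higher in experiment 3. Of 14 neutrophil markers 8 were above 0, and of 6 early neutrophil genes 2. The part of all these markers was not tested either. The median of the 61 genes was 0.13, −0.002 and 0.13 in experiments 1, 2 and 3, and no link between these values and those of the markers was tested.

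Rpl5 had a genotype difference of like size in the 3 experiments. Its protein binds 5S RNA together with Rpl11, which the array reads only by shared clusters, and in this form both can inhibit the p53 ubiquitin ligase MDM2. In the order of groups used above, its signal was 10.41, 10.38, 10.69 and 10.57 in experiment 1, 10.25, 10.20, 10.44 and 10.34 in experiment 2, and 10.67, 11.01, 11.12 and 11.01 in experiment 3. In experiments 1 and 2 both Card9-/- arrays were above both wild type arrays, while in experiment 3 the IC arrays were level. Averaged over the surfaces Rpl5 differed by 0.24, 0.17 and 0.23 in the 3 experiments, with a mean of 0.21 (SE 0.07, adjusted p = 0.310 in limma).

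Rps3a1 differed between the genotypes by 0.38 on IC and by 0.18 on the control surface. Its signal was 6.96, 6.80, 7.09 and 7.25 in experiment 1, 7.28, 7.13, 7.43 and 7.73 in experiment 2, and 7.23, 7.73, 7.49 and 7.81 in experiment 3. In each experiment the Card9-/- IC array was the highest of the 4. Averaged over the surfaces the difference was 0.28 (SE 0.09, adjusted p = 0.310 in limma).

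Rpl32l had the widest range of all 61 genes. Its signal was 7.28, 7.26, 7.66 and 7.60 in experiment 1, 6.18, 5.92, 6.24 and 6.13 in experiment 2, and 8.61, 8.83, 8.89 and 8.92 in experiment 3. No array of an experiment overlapped with those of another. The array median of the B cell markers was also lowest in experiment 2 and highest in an array of experiment 3, and its part in these values was not tested. The genotype difference averaged over the surfaces was 0.23 (SE 0.08, adjusted p = 0.324 in limma).

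**Figure D5:**
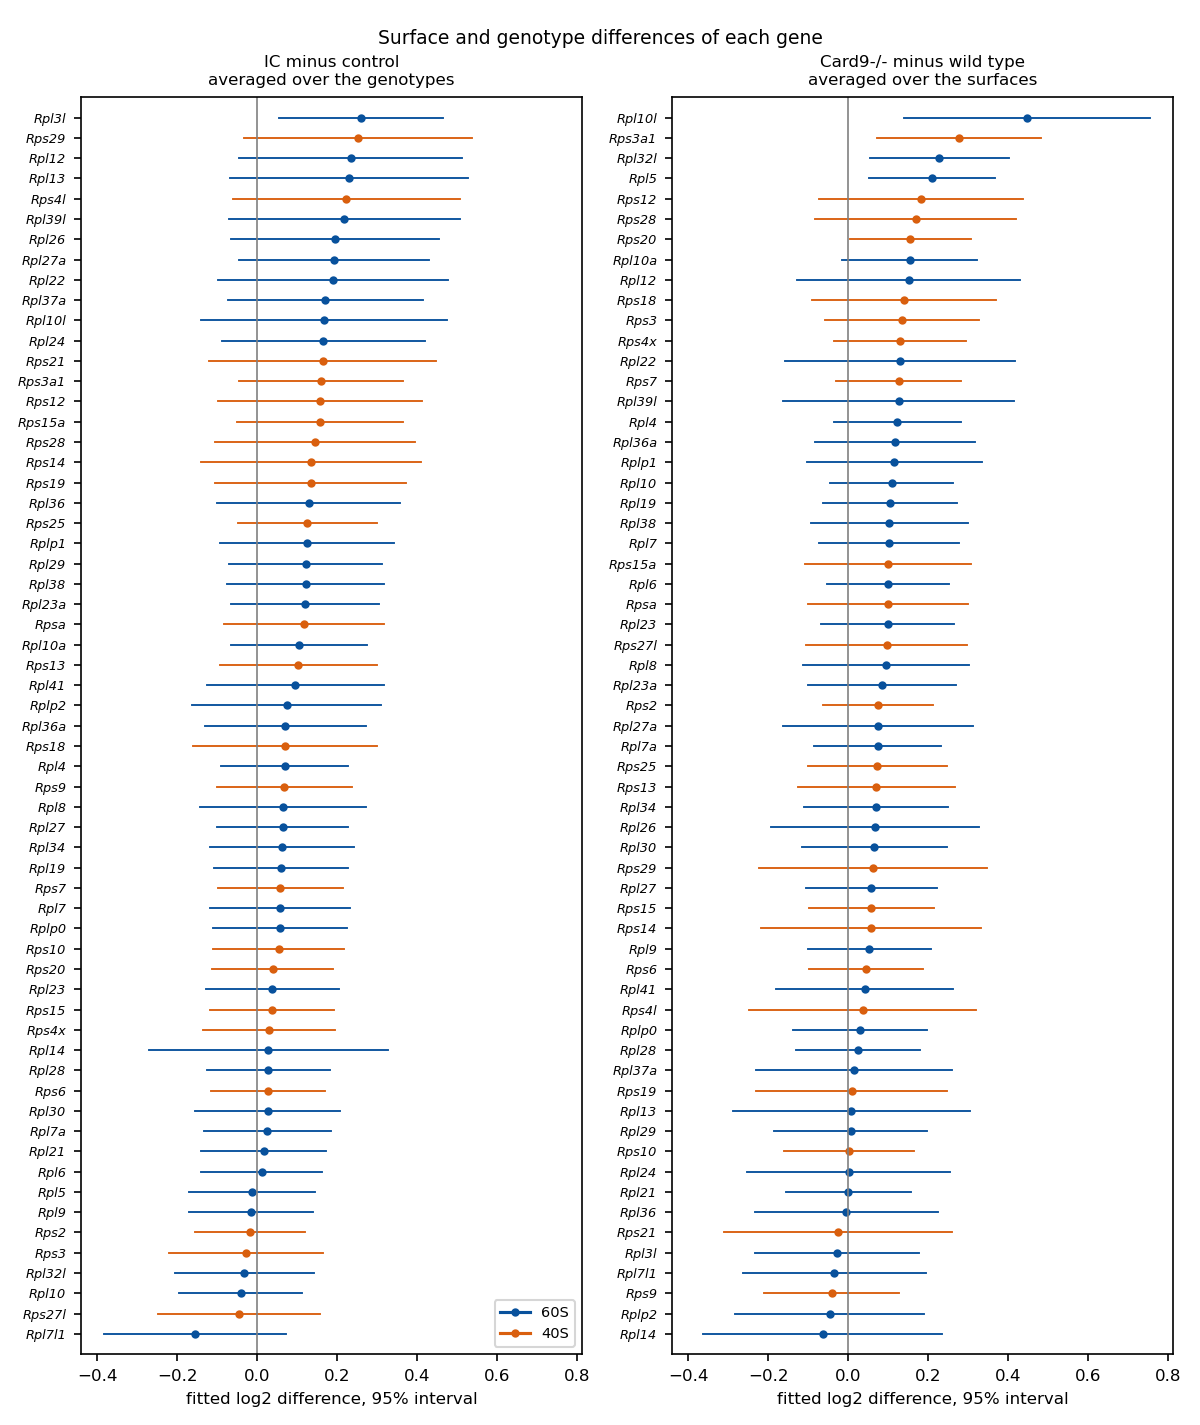
Fitted log2 difference with its 95% interval (horizontal axis) for each of the 61 genes (vertical axis, ordered by the difference), for IC against control averaged over the genotypes (left) and Card9-/- against wild type averaged over the surfaces (right); blue marks 60S and orange 40S genes. On the right 5 intervals lie above 0, those of Rpl10l, Rps3a1, Rpl32l, Rpl5 and Rps20, and on the left that of Rpl3l does. The mean signals of Rpl10l and Rpl3l were below the median signal of all clusters.

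The 6 measured genes of the paralog list, which leaves out Rpl32l, were read separately, since several of them are little used outside their own tissue. Rpl10l, the testis paralog of Rpl10, had the largest genotype difference of the 61 genes. Its signal was 4.75, 5.03, 4.79 and 5.22 in experiment 1, 4.71, 4.82, 5.30 and 4.92 in experiment 2, and 3.90, 4.01, 4.61 and 5.07 in experiment 3. Card9-/- arrays were above the wild type arrays of the same surface in all 3 experiments, most of all in experiment 3. Averaged over the surfaces the difference was 0.45 (SE 0.14, adjusted p = 0.266 in limma), from values of 0.12, 0.34 and 0.89.

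Rpl3l had signals of 4.26 to 5.52 and Rpl39l of 2.99 to 4.53. Together with Rpl10l they were the 3 of 61 genes that a filter at the median signal of all clusters left out. Rps27l, a paralog of Rps27 that p53 induces, had signals of 7.40 to 8.63, and Rps4l of 6.44 to 7.81. Rpl7l1, a paralog of Rpl7 with a role in ribosome assembly, ran against most of the other genes within experiment 3. Its signal was 9.29, 9.26, 9.16 and 9.32 in experiment 1, 9.42, 9.52, 9.44 and 9.36 in experiment 2, and 9.35, 8.87, 9.41 and 8.81 in experiment 3. In experiment 3 both IC arrays of Rpl7l1 were below both control arrays, whereas the median of all 61 genes was higher on IC in both genotypes. Averaged over the genotypes its difference was −0.15, the lowest of the 61.

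Other groups within the family gave no calls in either averaged comparison, where 0.0104% (IC) and 0.529% (genotype) of all clusters were called. The 6 measured genes of human Diamond-Blackfan anaemia, an inherited anaemia caused by loss of ribosomal protein genes, had a median of 0.10 on IC and of 0.06 between the genotypes. Rps29 of this group had the largest IC difference (0.25, SE 0.13), from values of −0.04, 0.03 and 0.76. The 4 measured genes of the polypeptide exit tunnel had medians of 0.09 on IC and between the genotypes, with Rpl26 at 0.19 on IC and Rpl4 at 0.12 between the genotypes. Rps2 and Rps3, which line the channel where mRNA enters, stood at −0.02 and −0.03 on IC and at 0.07 and 0.13 between the genotypes. The 18 measured hosts of small nucleolar RNAs, which are cut from introns of ribosomal protein genes, had medians of 0.05 and 0.09. Of these hosts 14 and 17 were above 0, against 55.6% and 53.5% of all clusters. Rps20, also a host, was higher by 0.16 in Card9-/- cells (SE 0.07, adjusted p = 0.478 in limma).

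Genes that act with the ribosomal proteins were read from fixed lists. None of 30 translation factors and none of 39 ribosome assembly genes passed in the averaged comparisons. At an unadjusted p under 0.05 in limma the translation factors gave 0 higher and 2 lower on IC and 2 higher and 0 lower between the genotypes, and the assembly genes 3 and 1, and 3 and 0. Of all clusters, 4.53% were higher and 4.48% lower on IC, and 4.78% and 5.31% between the genotypes. Npm1, which encodes nucleophosmin, an abundant nucleolar chaperone, stood at 0.35 in Card9-/- cells (SE 0.09, adjusted p = 0.161 in limma, higher in 3 of 3 experiments). Eif4a2, a helicase of translation initiation, stood at 0.26 (SE 0.07, adjusted p = 0.192 in limma), and Eif4b, a cofactor of that helicase, at −0.28 on IC (SE 0.09, adjusted p = 0.455 in limma). Of 19 mTORC1 genes 1 passed between the genotypes and 0 on IC, against 0.529% and 0.0104% of all clusters. The gene that passed was Ddit4, an inhibitor of mTORC1 that is induced by stress. Ddit4 was lower in Card9-/- cells by −0.70 (SE 0.13, adjusted p = 0.0414 in limma, and −0.81, −0.80 and −0.48 in the experiments).

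How large a difference the arrays leave room for can be read from the intervals. For all 61 genes and all 7 comparisons the 95% interval lay within a log2 difference of 1 either way. Of all clusters, 97.9% and 98.6% did so on IC in wild type and in Card9-/- cells, 99.4% on IC averaged over the genotypes and 95.9% for the difference of the effects. Between the genotypes 98.5% did so on the control surface, 97.5% on IC and 99.1% in the average. Within 0.5 either way lay the intervals of 41 genes on IC in wild type cells (73.4% of all clusters), of 49 in Card9-/- cells (81.6%) and of 56 in the average (91.7%). Between the genotypes there were 45 such genes on the control surface (79.7% of all clusters), 53 on IC (75.8%) and 60 in the average (92.1%). For the difference between the IC effects it was 31 of 61 genes, against 41.8%. The median SE of the 61 genes was 0.13 within a genotype or surface, 0.09 for the averages and 0.18 for the difference of effects.

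The choice of 1 cluster per gene mattered little for most genes. For the 39 genes read by several clusters, the wild type IC difference ranged over the clusters of a gene by a median of 0.05 and by at most 0.23, and for 37 of them by less than 0.2. The averaged genotype difference ranged by less than 0.2 for all 39 genes, with a median of 0.03. Clusters of a gene can share probes or transcripts, and 12 of the 217 clusters had values identical to those of another cluster. When the 17 genes read only by shared clusters were added, 0 of 78 genes passed in each of the 7 comparisons, and the median was 0.11 on IC in wild type cells and 0.09 between the genotypes. Rps15a depended on this choice: in the cluster that it shares with other genes, the difference on IC was 0.25 in wild type and 0.16 in Card9-/- cells, and the difference between these effects was −0.098.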

How the data were processed

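The authors hybridized labelled RNA (150 ng per sample) to an Affymetrix mouse gene array and deposited log2 signals per transcript cluster. How they were summarized and normalized is not stated by the labels or methods. Values were used as deposited, without a filter on signal. Of 35556 rows, 6612 outside the annotated identifiers were left out, none with a symbol. Symbols came from the platform annotation, and all 61 were current.

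The 28944 clusters were fitted with lmFit and eBayes of limma 3.58.1 (in R 4.3.3) over all 12 arrays, with the experiment as a block (6 residual and 5.40 prior degrees of freedom), and adjusted by Benjamini-Hochberg over all clusters within each of 7 comparisons (threshold 0.05, two-sided). The labels number the experiments, and every experiment holds all 4 groups. Deviations from group means correlated at 0.67 to 0.87 across clusters within an experiment and at −0.73 to 0.36 between experiments. This pairing is the reason for the block. The methods' factorial model was an alternative.

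Lists are described by counts and medians without a test. Named are up to 5 genes per direction and comparison with the largest difference among those with 1 direction in all experiments, the P-stalk genes, the paralogs and the 2 genes of each function list with the smallest p. Rps10 and Rps15a, and genes given for the experiment pattern, were also chosen after their values were seen. Members, lists and rules were chosen with earlier results of these data known. The procedure was tested on simulated data. Start sites came from RefSeq (GRCm38.p6), read in Python 3.11.15 with pandas 2.3.3, and figures from matplotlib 3.10.9. Arrays give no depth, and their number limits the precision. Raw array files were not used here.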

Additional observations from a re-analysis of the deposited data

Results flagged for a closer look

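Rps15a had opposite IC effects in the genotypes in every experiment: 0.13, 0.20 and 0.86 in wild type cells and −0.13, −0.003 and −0.11 in Card9-/- cells. The difference between these effects was −0.47 (SE 0.19, unadjusted p = 0.0289, adjusted p = 0.999 in limma). Of the 61 genes 1 behaved in this way, and the share of all clusters that did so was not counted. Whether this is unusual is thus not known. The wild type value of Rps15a in experiment 3 rests on the wild type control array of that experiment, which was the lowest of its 4 arrays for 52 of 61 genes. In the cluster of higher signal that Rps15a shares with other genes, the difference between the effects was −0.098.

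Rps10 had a genotype effect of opposite sign on the surfaces in every experiment, with lower values of Card9-/- cells on the control surface and higher values on IC. The difference between the effects was 0.11 (SE 0.15, adjusted p = 0.999 in limma), so the test did not pass. Its signal in the order control and IC of wild type, then control and IC of Card9-/- cells, was 11.35, 11.29, 11.33 and 11.39 in experiment 1, 11.43, 11.34, 11.42 and 11.36 in experiment 2, and 12.24, 12.40, 12.12 and 12.45 in experiment 3.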

How the results depend on the processing

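In the 7 comparisons 0 of 61 genes passed under the alternatives run, apart from 1 gene (Rps3a1, averaged genotype comparison) without the wild type IC array of experiment 3. Without the replicate block the count was 0 in each comparison, also at an unadjusted p under 0.05, and the factorial model without moderation gave 0 as well. The named genes counted next were chosen for 1 direction in all experiments, so leaving out an experiment could not reverse them. Settings that alter only the estimate of the spread leave the fitted difference unchanged. Much of the count was therefore fixed in advance and does not measure robustness. Over 16 settings, 691 of 696 values of named genes kept their direction. The 5 that reversed were, without the wild type control array of experiment 3, Rpl13 (0.018) and Rpl22 (0.016) in the difference of the IC effects, Rpl22 between the genotypes on the control surface (−0.00045) and Rpl7l1 between the genotypes averaged over the surfaces (0.018). The lowest or highest values of these 4 when another array or experiment was left out were −0.34, −0.34, 0.35 and −0.098. The other was Rps15a on IC in Card9-/- cells (0.16) when clusters naming several genes were included, where another cluster represents it. When each experiment was left out in turn, the median of the 61 genes ranged from −0.04 to 0.18 on IC in wild type cells, from −0.03 to 0.09 in Card9-/- cells and from −0.03 to 0.15 averaged. It ranged from −0.13 to 0.01 for the difference of the effects, from 0.04 to 0.18 between the genotypes on the control surface, from −0.003 to 0.08 on IC and from 0.05 to 0.13 averaged. Leaving out the wild type control array or the wild type IC array of experiment 3 was chosen after seeing the data. The cause of these shifts was not tested.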
